A study of Mus musculus with 8 samples.

Results

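Bdh1, Acat1, Pdk4, Angptl4, Cyp4a10 and Creb3l3, genes of the fasting response, were followed in mouse intestinal organoids. These 6 genes were chosen by name as enzymes of ketone body metabolism or as fasting-type targets of PPARα, out of 14261 genes with a value, and all 6 were among the 11038 genes tested. Organoids from 4 WT samples were compared with organoids from 4 MG53-TG samples by RNA sequencing. MG53-TG mice carry a transgene for MG53, the TRIM family E3 ligase encoded by Trim72, and the WT mice were their littermates. Crypts were isolated from the intestine, embedded in Matrigel and grown in a commercial organoid medium without a fasting, drug or injury treatment named in the labels. The labels give neither the promoter of the transgene nor the age of the mice, nor whether the 4 samples of a genotype were separate mice or cultures, so p-values measure the spread between these samples. The text of the study names the organoid genotypes MG53;Lgr5 and Lgr5 in one place and MG53-TG and WT in another, and the labels were followed here. In the check of the labels, Trim72 reached 16.4, 27.4, 31.9 and 36.5 FPKM (fragments scaled by transcript length and by the number mapped) in the MG53-TG libraries and was without an entry in all WT libraries.

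PPARα is a nuclear receptor that is activated by fatty acids and binds DNA together with the retinoid X receptor. In fasting liver it turns on genes for fatty acid oxidation, for the making of ketone bodies from acetyl-CoA and for sparing glucose, and much of the same target set is expressed in the absorptive cells of the small intestine. The 6 genes sit at different steps of this program. Acat1 and Bdh1 encode mitochondrial enzymes at the start and the end of the ketone body route, Pdk4 holds back pyruvate oxidation, Angptl4 blocks lipoprotein lipase, Cyp4a10 hydroxylates fatty acids at their far end, and Creb3l3 is a membrane-bound transcription factor that acts beside PPARα.

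Creb3l3, Angptl4 and Pdk4 were higher in the MG53-TG organoids and Cyp4a10 had entries in MG53-TG organoids alone, whereas the ketone body enzymes Bdh1 and Acat1 did not pass the test. At a limma adjusted p of at most 0.05, Creb3l3 and Angptl4 were called higher and Bdh1 and Acat1 were not called. Of all genes tested, 15.6% were called higher, 28.7% lower and 44.3% in either direction. Cyp4a10 and Pdk4 are left out of this comparison with all genes. Pdk4, with a WT mean under 0.5 FPKM, passed the filter on low values through the MG53-TG group, so its call is a description. The median log2 fold change, taken throughout as the difference of mean log2(FPKM + 1), MG53-TG minus WT, was -0.17 for all genes. After median-of-ratios scaling the median of all genes was -0.01, so that changes near this shift depend on the scaling. For Creb3l3, Angptl4 and Bdh1 every MG53-TG sample lay above every WT sample, a pattern found in 15.7% of all genes tested (44.5% in either direction).

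**Figure D1:**
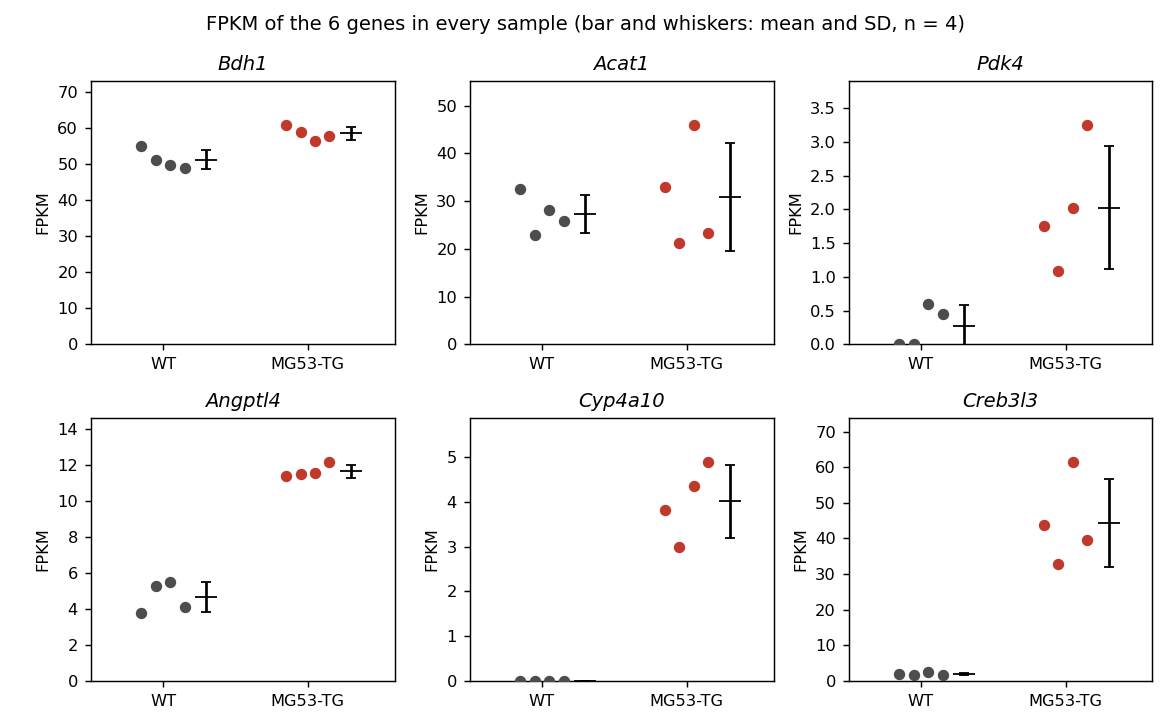
Each panel plots the FPKM of one gene in the 4 WT (grey) and 4 MG53-TG (red) samples, with the mean and SD as a bar and whiskers; the axes start at 0 and differ between panels. The WT points of Cyp4a10 at 0 stand for absent entries, and of the other panels the groups overlap for Acat1, where MG53-TG sample 3 reached 46.0 FPKM.

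The sequences before the RefSeq start sites are shown first because the 3 genes that have an entry in the promoter table, Creb3l3, Pdk4 and Bdh1, include called genes and a gene that was not called. Each stretch of 200 bases ends 50 bases before the start site and is given 5′ to 3′ on the strand of the gene (RefSeq, GRCm38.p6). Capitals mark the letters NGGTCA, which include the AGGTCA hexamer bound by nuclear receptors, and CCAAT, in either orientation. The Creb3l3 stretch is chr10:81098923-81099122 on the minus strand, the Pdk4 stretch is chr6:5496329-5496528 on the minus strand, and the Bdh1 stretches, on the plus strand, are chr16:31422047-31422246 before the first start and chr16:31428503-31428702 before the second.
Creb3l3: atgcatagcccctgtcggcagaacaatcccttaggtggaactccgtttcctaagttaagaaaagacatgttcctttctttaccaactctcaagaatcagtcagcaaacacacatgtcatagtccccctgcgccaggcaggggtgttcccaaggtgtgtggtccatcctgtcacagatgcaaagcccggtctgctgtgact
Pdk4: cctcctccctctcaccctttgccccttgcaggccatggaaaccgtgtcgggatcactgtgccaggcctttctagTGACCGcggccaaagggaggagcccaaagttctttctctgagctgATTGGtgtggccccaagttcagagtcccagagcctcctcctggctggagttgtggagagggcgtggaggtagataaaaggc
Bdh1 first start: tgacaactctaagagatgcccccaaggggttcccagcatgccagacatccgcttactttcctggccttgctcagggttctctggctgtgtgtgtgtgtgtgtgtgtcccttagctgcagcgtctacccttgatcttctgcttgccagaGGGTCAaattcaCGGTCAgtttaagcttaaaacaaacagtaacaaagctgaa
Bdh1 second start: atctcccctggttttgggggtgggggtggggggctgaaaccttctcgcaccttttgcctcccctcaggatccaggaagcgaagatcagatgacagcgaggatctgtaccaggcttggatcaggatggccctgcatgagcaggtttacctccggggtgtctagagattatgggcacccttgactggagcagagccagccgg

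Creb3l3 has a second RefSeq start within the gene, and the 30 bases at chr10:81092776-81092805 around its AGGTCA, 202 bases before that start, are shown because they hold the only exact hexamer among the 5 windows of these genes.
Creb3l3 internal start: taagtaggggagAGGTCAcacagacccgac

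Searched on both strands over the 250 bases before the start, AGGTCA was present in 14% of 32851 promoters, and NGGTCA, which contains it, in 35.1%. DR1, the direct repeat of AGGTCA with a spacer of 1 base that PPARα binds with its partner, was found in 0.0335% of promoters, in 0.338% when the fourth base of each hexamer was left free, and in neither form in the windows of Creb3l3, Pdk4 or Bdh1. Among 28 listed PPARα targets with a promoter entry, DR1 was found in 0 and the looser form in 1, Fabp1. Its absence from so short a window therefore does not set these genes apart from other targets. CCAAT was present in 33.8% of promoters, and lies 131 bases before the Pdk4 start and 95 bases before the internal Creb3l3 start. NGGTCA and CCAAT were chosen after the sequences had been seen, and a match of letters is not a binding site.

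Creb3l3 encodes CREB-H, which is anchored in the endoplasmic reticulum, is cut by the proteases of the Golgi and switches on genes of triglyceride transport. Creb3l3 (ENSMUSG00000035041, chromosome 10, 81084324 to 81098874, minus strand) was listed at 1.94, 1.56, 2.51 and 1.79 FPKM in WT samples 1 to 4. In the MG53-TG samples it was listed at 43.7, 32.8, 61.6 and 39.6 FPKM. The lowest MG53-TG sample was thus far above the highest WT sample. The mean rose from 1.95 ± 0.408 to 44.4 ± 12.3 FPKM (SD, n = 4), a ratio of 22.8, with a log2 fold change of 3.92 ± 0.19 (SE) and a limma adjusted p of 2.54e-06. The two-sided exact permutation test over 70 relabellings gave p = 0.0286, the smallest it can give with 4 samples per group, as it did for every gene below whose groups were apart with 8 values.

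The Creb3l3 value is that of its transcript end events, since the deposited start events of this gene were at most 0.931 FPKM and were listed in 3 samples. The main end, from 81084046 to 81085134, covers the last exon, exon 12 (81084324 to 81085134), and runs past its annotated end. It was at 1.27, 1.15, 2.01 and 0.931 FPKM in WT and at 37.3, 23.6, 60.3 and 36.7 FPKM in MG53-TG libraries. The other end, from 81089943 to 81090183, is the end of a short annotated transcript with a retained intron. The short end made up 32.2% ± 12.03 of the end events in WT and 12.9% ± 11.2 in MG53-TG organoids (SD, n = 4), a difference that did not pass the exact permutation test (p = 0.0857). Both ends therefore contributed to the higher level, the main end from 0.931 to 2.01 up to 23.6 to 60.3 FPKM and the short end from 0.409 to 0.860 up to 1.21 to 9.12 FPKM.

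Of the other CREB3 genes 1 was called. Creb3, the founding member, was higher by 0.58 ± 0.11 on the log2 scale (adjusted p = 0.00296), from 4.76 ± 0.398 to 7.61 ± 0.688 FPKM. Creb3l1, Creb3l2 and Creb3l4 were not called, with log2 fold changes of 0.09, 0.08 and 0.03, and Creb3l1 turned to -0.56 with start events alone while Creb3l4 was at -0.05 without WT sample 3 and at -0.01 without MG53-TG sample 4. Mbtps1 and Mbtps2, the site-1 and site-2 proteases that cut these factors, were lower by -0.36 ± 0.12 (adjusted p = 0.0341) and -0.78 ± 0.17 (adjusted p = 0.00563). The Mbtps1 call was lost in 7 of the 8 fits that left out a sample, MG53-TG sample 1 being the exception, with adjusted p-values of up to 0.0898, and with median-of-ratios scaling (adjusted p = 0.186), quantile normalization (0.210) and a replicate block (0.0659). Of the 6 other genes of this list that were tested, 1 was called higher and 2 lower, with a median of 0.06. Of 8 genes in a short list of reported CREB-H targets, 3 were tested and all 3 were called higher, against 15.6% of all genes tested. They were Apoa4, an apolipoprotein of chylomicrons, by 4.33 ± 0.19, Apoc2, the cofactor of lipoprotein lipase, by 4.02 ± 0.08, and the lipid droplet protein Cidec by 1.48 ± 0.13. Apoa5, Hamp and Apcs had no entry, and Fgf21 and Crp stayed under the filter. Whether CREB-H acts on these genes was not tested.

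Angptl4 is secreted in fasting and inhibits lipoprotein lipase, the enzyme that frees fatty acids from circulating triglyceride. Angptl4 (ENSMUSG00000002289, chromosome 17, 33773750 to 33781830, minus strand) was listed at 3.77, 5.28, 5.47 and 4.12 FPKM in WT samples 1 to 4. The MG53-TG samples held 11.4, 11.5, 11.5 and 12.2 FPKM. The MG53-TG values were close to each other and every one was above the WT range. The mean increased from 4.66 ± 0.843 to 11.6 ± 0.362 FPKM, a ratio of 2.50, with a log2 fold change of 1.17 ± 0.13 (SE) and an adjusted p of 0.00016. A single start event, in the first exon from 33781063 to 33781830, carried the whole value.

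Among the relatives of Angptl4, Angptl8, a secreted regulator of the same lipase, was also higher, at 3.32 ± 1.01 FPKM in WT and 6.99 ± 0.832 FPKM in MG53-TG organoids (log2 fold change 0.91 ± 0.18, adjusted p = 0.00448). Angptl6 was not called (-0.10 ± 0.15), and its sign turned to 0.01 with median-of-ratios scaling, while Angptl2 stayed under the filter. Endothelial lipase, Lipg, was lower by -1.89 ± 0.23 (adjusted p = 0.000298), from 7.13 ± 0.858 to 1.28 ± 0.758 FPKM. Sel1l, which aids the folding and exit of lipoprotein lipase, was lower by -0.38 ± 0.10 (adjusted p = 0.0153), a call that was lost with median-of-ratios scaling (adjusted p = 0.178) and with quantile normalization (adjusted p = 0.113). In the list of angiopoietin-like proteins and lipoprotein lipase, 6 genes other than Angptl4 were tested, of which 1 was called higher and 2 lower, with a median of -0.17, close to that of all genes.

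Pdk4 phosphorylates and so inactivates the pyruvate dehydrogenase complex, which keeps pyruvate from being burned when fat is the fuel. Pdk4 (ENSMUSG00000019577, chromosome 6, 5483351 to 5496309, minus strand) was listed at 0.00245, 0.00258, 0.602 and 0.454 FPKM in WT samples 1 to 4. In the MG53-TG samples it was listed at 1.76, 1.08, 2.01 and 3.26 FPKM. WT samples 1 and 2 were close to 0 and WT samples 3 and 4 were not, and all 4 stayed under the lowest MG53-TG sample. The mean rose from 0.265 ± 0.309 to 2.03 ± 0.909 FPKM, a ratio of 7.64. With a WT mean this low and so spread, the ratio is not a precise value. The log2 fold change was 1.24 ± 0.25 (SE), with a limma adjusted p of 0.00449. The pseudocount of 1 holds this fold change down, and with a pseudocount of 0.1 it was 2.97 (adjusted p = 0.0108). As the WT mean lies under the filter of 0.5 FPKM, the gene was tested on account of its MG53-TG values; in the fit without a filter the adjusted p was 0.00653. The level stayed low in both genotypes, and the gene was no longer tested when a mean of at least 2 FPKM was required. Start and end events gave equal FPKM wherever both were listed, apart from MG53-TG sample 3, where a second start of 0.118 FPKM was added.

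Of the 4 pyruvate dehydrogenase kinases, Pdk2 was called higher and Pdk1 and Pdk3 lower. Pdk4 was tested on account of its MG53-TG values, so its call is a description. Pdk2 was at 6.65 ± 0.477 FPKM in WT and 15.3 ± 0.665 FPKM in MG53-TG organoids (log2 fold change 1.09 ± 0.09, adjusted p = 4.81e-05). Pdk1, the kinase known for its response to hypoxia, was lower, at 50.8 ± 6.18 FPKM in WT and 29.9 ± 9.33 FPKM in MG53-TG organoids (log2 fold change -0.80 ± 0.24, adjusted p = 0.0238). This call was lost without WT sample 2 (adjusted p = 0.0501), without WT sample 4 (0.0648) and with median-of-ratios scaling (0.0936). Pdk3 was at 9.56 ± 0.832 FPKM in WT and 6.72 ± 1.36 FPKM in MG53-TG organoids (-0.47 ± 0.14, adjusted p = 0.0275), with groups that overlapped. The Pdk3 call did not hold without WT sample 2, 3 or 4 or MG53-TG sample 1 or 4 (adjusted p between 0.0535 and 0.0719), nor with median-of-ratios scaling (0.176) or quantile normalization (0.170). In both genotypes Pdk1 was the kinase with the highest FPKM and Pdk4 the one with the lowest.

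Of the 12 other tested genes of the pyruvate dehydrogenase complex, its kinases and phosphatases and the mitochondrial pyruvate carrier, 2 were called higher and 4 lower, with a median of -0.04. Besides the kinases, the called genes were Mpc1, a subunit of the carrier, and Pdhb and Pdp2, a subunit of the complex and a phosphatase that reactivates it. Mpc1 was higher by 1.61 ± 0.47 (adjusted p = 0.0221), a call lost without WT sample 2 (adjusted p = 0.060) and without MG53-TG sample 4 (0.0515). Pdhb was lower by -0.58 ± 0.14 (adjusted p = 0.0112; 0.0694 with median-of-ratios scaling), and Pdp2 by -0.46 ± 0.09 (adjusted p = 0.00429; -0.29 and 0.0327 with that scaling). Without WT sample 2 the list held 3 called genes in place of 6. The subunits Pdha1, Dlat and Dld and the carrier subunit Mpc2 were not called, with log2 fold changes of -0.11, 0.11, 0.18 and 0.15, and Pdha1 turned to 0.08 with median-of-ratios scaling and Mpc2 to -0.04 without WT sample 4. The Dld groups did not overlap (adjusted p = 0.0609), and Dld was called without a filter (0.0318), with median-of-ratios scaling (0.37, adjusted p = 0.0117) and with end events alone (0.0448).

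Cyp4a10 encodes a cytochrome P450 that hydroxylates fatty acids at the omega carbon, and it is a classical PPARα target in mouse liver. Cyp4a10 (ENSMUSG00000066072, chromosome 4, 115518264 to 115533649, plus strand) had no entry in any of the 4 WT samples. The MG53-TG values were 3.82, 2.98, 4.36 and 4.90 FPKM, with a mean of 4.01 ± 0.816 FPKM (SD, n = 4). No fold or p is given, as a missing entry sets no level for WT and the gene passed the filter through the MG53-TG group alone. The files name the neighbour Cyp4a31 for these rows, but their first and last exons, from 115518264 to 115518510 and from 115533134 to 115533649, are those of Cyp4a10.

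Genes of the Cyp4a cluster are near-identical copies, so reads may be split between them, and the assignment is uncertain. In MG53-TG samples 1 to 4 the Cyp4a10 end event alone held 2.95, 2.32, 3.52 and 4.13 FPKM, which left 15.7% to 22.9% of the start FPKM unmatched. The unmatched FPKM, 0.660 to 0.874, equalled within 0.001 FPKM in each of the 4 samples that of an exon end inside Cyp4a31, from 115574890 to 115574966. The event that includes exon 6 (115524725 to 115524879) equalled the start event in MG53-TG samples 1, 2 and 3, and in MG53-TG sample 4 an event that skips this exon was listed at 0.770 FPKM.

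Of the 7 other CYP4 genes tested, 5 were called higher and 0 lower, with a median log2 fold change of 1.92. Cyp4v3, a fatty acid hydroxylase, was at 6.70 ± 0.674 FPKM in WT and 82.7 ± 24.1 FPKM in MG53-TG organoids (log2 fold change 3.40 ± 0.20). Cyp4f14, which hydroxylates leukotrienes and long-chain fatty acids, went from 30.9 ± 4.04 to 256.9 ± 34.4 FPKM (3.01 ± 0.13), and Cyp4b1 from 3.75 ± 0.423 to 29.7 ± 4.22 FPKM (2.69 ± 0.13). Cyp4f16, Cyp4f40 and the fatty aldehyde dehydrogenase Aldh3a2, which completes omega-oxidation to the dicarboxylic acid, were higher by 1.92, 1.12 (1.84 by the gene named in the files) and 1.61. Cyp4f13 was not called (1.07 ± 0.44, adjusted p = 0.0776) although it passed without MG53-TG sample 2 (adjusted p = 0.00973). Por, the reductase that feeds electrons to these enzymes, was higher by 0.43 ± 0.15 (adjusted p = 0.0409), but its groups overlapped and the call was lost in 7 of the 8 fits that left out a sample, MG53-TG sample 2 being the exception (adjusted p of up to 0.105); it was named after its values had been seen. With Por and Aldh3a2 the list held 9 tested genes, of which 7 were called higher and 0 lower, with a median of 1.61. With end events alone 4 were called, a count from which genes without an end value drop out.

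**Figure D2:**
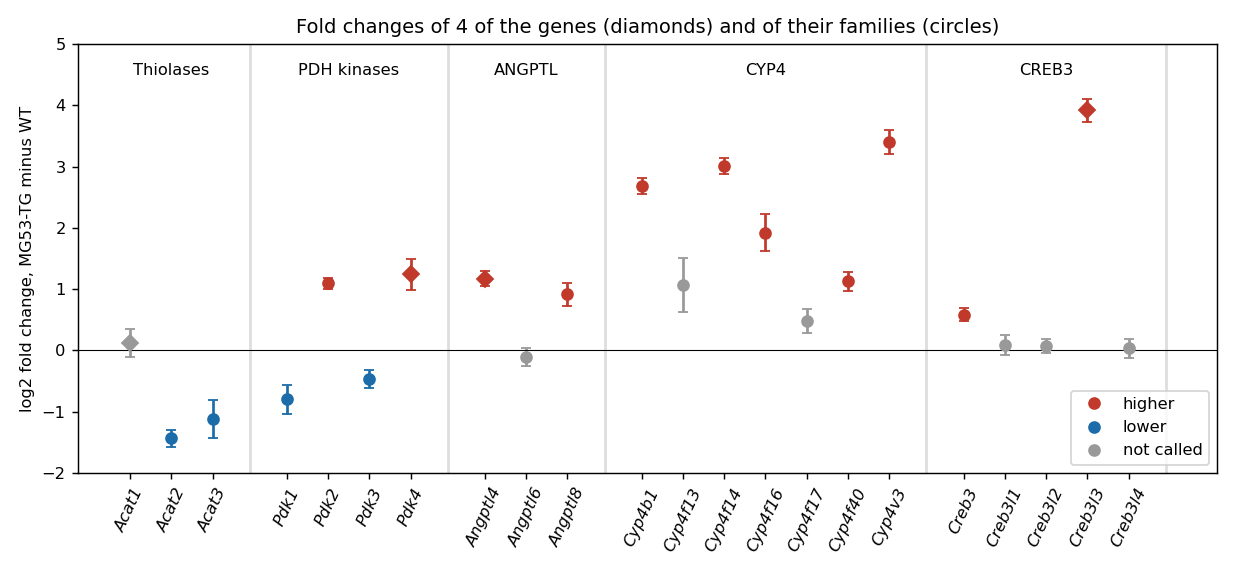
Log2 fold changes (MG53-TG minus WT, of log2(FPKM + 1)) with SE for Acat1, Pdk4, Angptl4 and Creb3l3 (diamonds) and for tested genes of their families (circles), coloured by the limma call. Kinases lie on both sides of 0 and all 7 CYP4 genes lie above it. The thiolases Acat2 and Acat3 lie below 0, while Acat1 lies within its SE of 0. Cyp4a10, without an entry in WT, is not drawn.

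Bdh1 interconverts acetoacetate and 3-hydroxybutyrate, the last step of ketone body synthesis and the first of their use. Bdh1 (ENSMUSG00000046598, chromosome 16, 31422280 to 31458901, plus strand) was listed at 55.0, 51.2, 49.7 and 49.1 FPKM in WT samples 1 to 4. In the MG53-TG samples it was listed at 60.9, 59.0, 56.6 and 57.9 FPKM. The groups did not overlap, although the highest WT and the lowest MG53-TG sample were close. The means were 51.2 ± 2.64 and 58.6 ± 1.85 FPKM, a ratio of 1.14, and the log2 fold change of 0.19 ± 0.08 (SE) did not pass (adjusted p = 0.0714). Without the filter on low values the adjusted p was 0.0445, and median-of-ratios scaling gave 0.38 with an adjusted p of 0.00733, so whether Bdh1 is called depends on these choices.

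Bdh1 is transcribed from several first exons, of which the second carried most of the signal; no start was tested for a difference in FPKM. The second start, with its first exon from 31428748 to 31428987 (UTR), was at 45.9, 48.3, 46.3 and 47.9 FPKM in WT and at 55.6, 56.0, 56.0 and 55.8 FPKM in MG53-TG libraries. The first start, with its exon from 31422280 to 31422512 (UTR), was at 8.85, 2.40, 3.18 and 0.758 FPKM in WT and at 4.58, 2.52, 0.029 and 0.733 FPKM in MG53-TG libraries. Another start, from 31429299 to 31429591, was low, with 0.127 to 0.326 FPKM in WT and 0.373 to 1.22 FPKM in MG53-TG libraries, so that the groups were apart for this start and the second and overlapped for the first. The share of the second start was 92.1% ± 6.10 in WT and 95.4% ± 3.22 in MG53-TG organoids, which did not differ beyond the spread (exact permutation p = 0.429). The windows before both starts are those printed above, and NGGTCA is in that of the first start only, 102 and 90 bases before it. A cassette exon from 31445346 to 31445433, exon 3 of a transcript annotated for nonsense-mediated decay (Bdh1-207), was included in 16.1% of the Bdh1 signal in WT sample 2, 19.7% in MG53-TG sample 1 and 3.52% in MG53-TG sample 4 and had no entry in the other samples. Its paralog Bdh2 was under the filter, at 0.121 FPKM in WT and 0.252 FPKM in MG53-TG organoids on average.

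Acat1 joins or splits acetoacetyl-CoA in mitochondria and serves both ketone body metabolism and isoleucine breakdown. Acat1 (ENSMUSG00000032047, chromosome 9, 53580522 to 53610382, minus strand) was listed at 32.5, 23.0, 28.1 and 25.8 FPKM in WT samples 1 to 4. In the MG53-TG samples it was listed at 33.1, 21.3, 46.0 and 23.3 FPKM. The groups overlapped, and MG53-TG sample 3 was the highest and MG53-TG sample 2 the lowest of all 8. The means were 27.3 ± 4.02 and 30.9 ± 11.3 FPKM, with a log2 fold change of 0.12 ± 0.23 (SE; adjusted p = 0.705) that turned to -0.09 without MG53-TG sample 3.

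Acat1 had a single start but 3 ends, and the end in use differed between samples of one genotype. The annotated last exon, exon 12 from 53580522 to 53582665, carried all end FPKM in WT samples 2, 3 and 4 and in MG53-TG samples 2 and 4. An end from 53579793 to 53580894, which runs past the annotated exon, carried 99.6% in WT sample 1, 99.6% in MG53-TG sample 3 and 41.7% in MG53-TG sample 1. In MG53-TG sample 1 a further 58.0% was listed for an end from 53570980 to 53571068, beyond the annotated gene, and 0.366% for the annotated last exon. The 3 samples that used these other ends had the highest Acat1 values, 32.5, 33.1 and 46.0 FPKM; whether the choice of end bears on the FPKM was not tested.

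**Figure D3:**
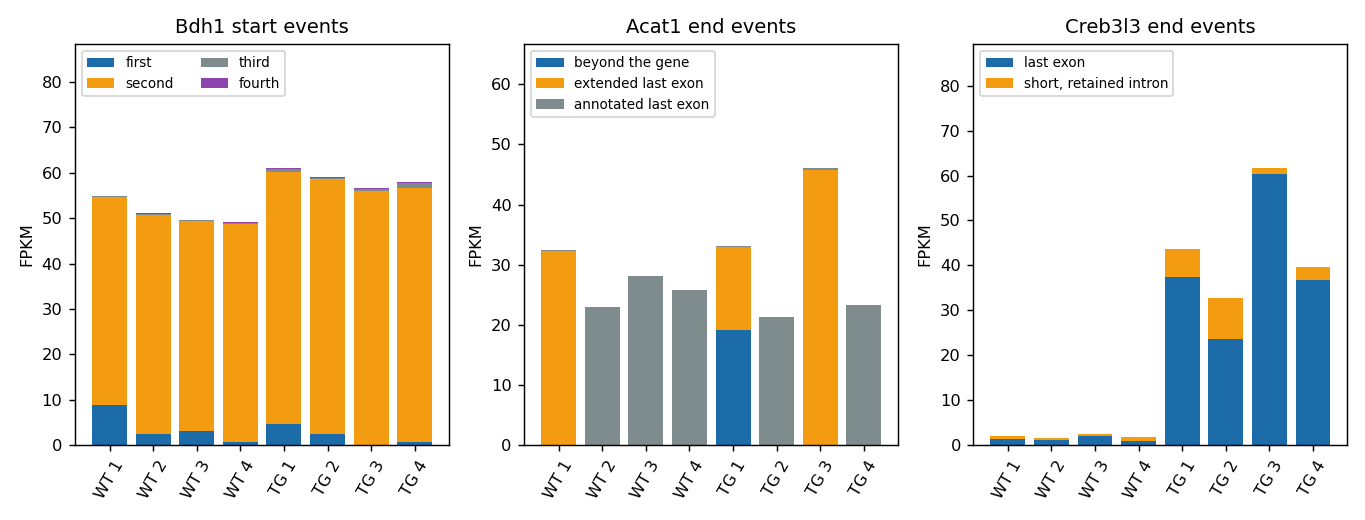
Stacked FPKM of the start events of Bdh1 (left) and the end events of Acat1 (middle) and Creb3l3 (right) in each of the 4 WT and 4 MG53-TG (TG) samples, with one colour per event. The second Bdh1 start dominates in all 8 samples, the Acat1 end changes from sample to sample within a genotype, and the main Creb3l3 end leads in every sample.

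Other genes of ketone body metabolism were given one by one, without a count over the pathway, because they do not make up the whole of it. Among enzymes of ketone body use and of the cytosolic acetoacetyl-CoA pool, Oxct1, which activates acetoacetate in mitochondria, was lower, from 37.6 ± 0.419 to 14.0 ± 1.904 FPKM (log2 fold change -1.37 ± 0.11, adjusted p = 2.96e-05). Aacs, which activates acetoacetate in the cytosol for lipid synthesis, was lower, from 30.1 ± 3.49 to 12.5 ± 3.19 FPKM (-1.23 ± 0.19). Acat2, the cytosolic thiolase of the sterol pathway, was lower, from 97.6 ± 6.33 to 35.9 ± 7.58 FPKM (-1.44 ± 0.14), while the mitochondrial thiolase Acat1 was not called. Acat3, a near copy of Acat2, was lower by -1.12 ± 0.31 (adjusted p = 0.0247), but the fit dropped MG53-TG samples 3 and 4 as missing (-2.10 and an adjusted p of 0.0114 with them at 0), and the call was lost without WT sample 1, 2 or 3 or MG53-TG sample 2 (adjusted p between 0.0548 and 0.130).

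The monocarboxylate transporter Slc16a1, which carries ketone bodies and lactate, was lower by -0.70 ± 0.09 (adjusted p = 0.000526), and Slc16a6, a 3-hydroxybutyrate exporter, had a log2 fold change of 0.26 ± 0.11 (adjusted p = 0.0737; 0.0292 after median-of-ratios scaling, 0.0265 after quantile normalization).

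**Figure D4:**
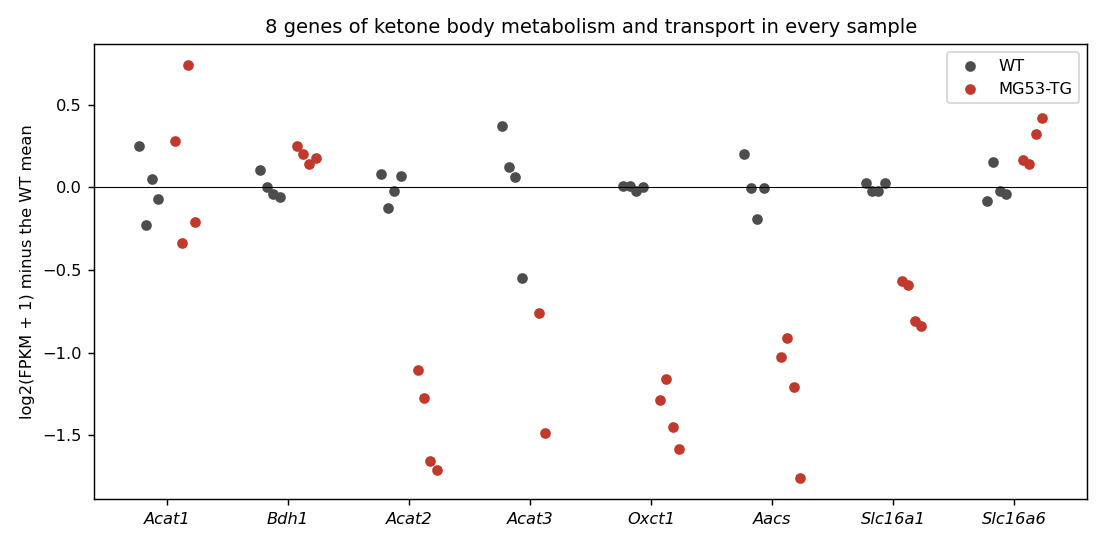
Log2(FPKM + 1) minus the WT mean for 8 genes of ketone body metabolism and transport in the 4 WT (grey) and 4 MG53-TG (red) samples; Acat3 had no value in 2 MG53-TG samples. All MG53-TG points of Acat2, Acat3, Oxct1, Aacs and Slc16a1 lie below the WT points, those of Bdh1 lie above them, and those of Acat1 and Slc16a6 overlap.

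In a list of other PPARα targets, 31 genes were tested, of which 29 were called higher and 1 lower, with a median log2 fold change of 1.16. Fabp1, the fatty acid binding protein of liver and gut, rose from 256.2 ± 38.9 to 5814 ± 361.1 FPKM (4.51 ± 0.11). The peroxisomal thiolase Acaa1b, the membrane protein Pex11a of peroxisome division, the enoyl-CoA isomerase Ech1, the intestinal binding protein Fabp2 and the retinol saturase Retsat were higher by 3.55, 1.69, 1.82, 3.42 and 1.68. The single gene called lower was Cidea (-1.08 ± 0.15), a lipid droplet protein, and the single gene not called was Mlycd (0.17 ± 0.11), both named after their values had been seen. Cidea averaged 0.269 FPKM in MG53-TG and 1.65 FPKM in WT organoids, so it passed the filter through WT alone and its call is a description. Among 16 tested regulators of fasting, 4 were called higher and 5 lower, with a median of -0.19. With end events alone 4 genes were called, a count from which genes without an end value drop out. Ppara itself was at 5.29 ± 1.26 FPKM in WT and 14.5 ± 4.66 FPKM in MG53-TG organoids (1.28 ± 0.24, limma adjusted p = 0.00301), and its partner Rxra was higher by 0.87 ± 0.12. Within MG53-TG, Ppara was at 10.8 and 10.2 FPKM in samples 1 and 2 and at 18.2 and 18.9 FPKM in samples 3 and 4.

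Tfeb, a lysosomal regulator, was higher by 0.46 ± 0.14 (adjusted p = 0.0304), a call lost in 5 of the 8 fits that left out a sample, those without WT sample 2 or 3 or MG53-TG sample 1, 3 or 4 (adjusted p between 0.0555 and 0.0805). Foxo3, a forkhead factor of the fasting response, was lower by -0.77 ± 0.13 and the phosphatidate phosphatase Lpin1 by -1.32 ± 0.21. Pparg, the fat cell PPAR, was lower by -0.67 ± 0.16 (adjusted p = 0.0108; 0.0631 after median-of-ratios scaling, 0.0636 after quantile normalization). The glucocorticoid receptor Nr3c1 was not called (0.08 ± 0.21), and its sign turned without MG53-TG sample 3 (-0.05).

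**Figure D5:**
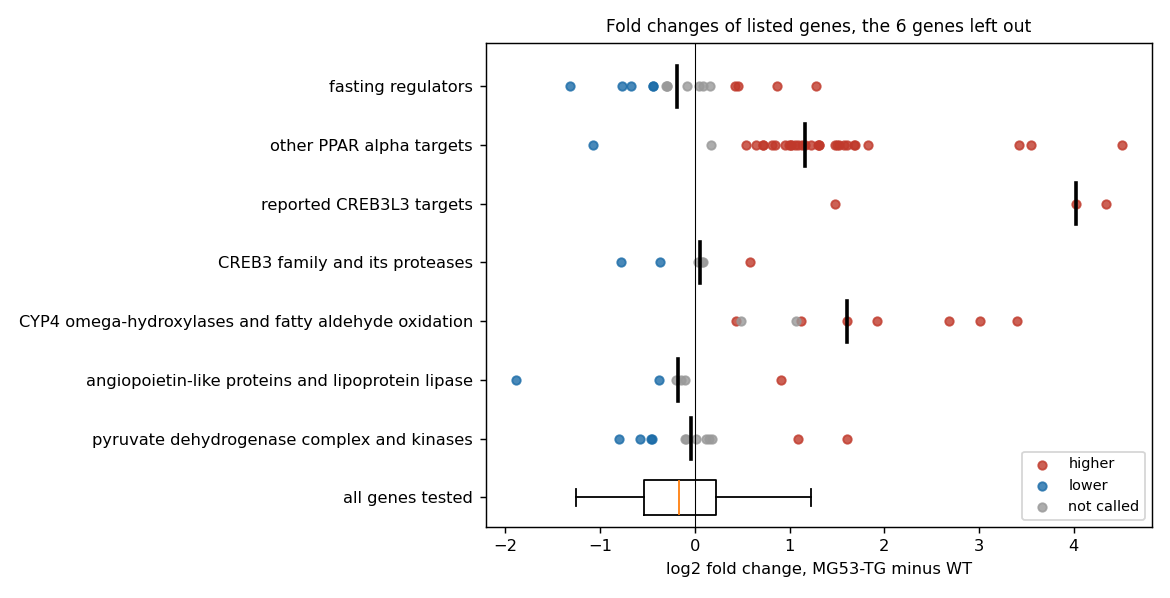
Log2 fold changes (MG53-TG minus WT) of the tested genes of 7 lists, without the 6 genes themselves, coloured by the limma call, with the median of each list as a black bar; the box gives the quartiles of all 11038 genes tested, with whiskers at the 5th and 95th percentiles. The medians are 1.16 for other PPARα targets and 1.61 for the list of CYP4 genes and fatty aldehyde oxidation, against -0.17 for all genes.

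Absorptive cell markers were higher in the MG53-TG organoids. The 12 enterocyte markers (among them Alpi and Sis) were all called higher, with a median of 2.99, and their summed FPKM was 813 to 932 in WT and 6552 to 7437 in MG53-TG organoids; Apoa4 and Fabp2 are in this list as well as in those above. Of the stem cell markers 6 of 7 were called lower, of the proliferation markers 8 of 9, of the goblet cell markers 5 of 7 and of the Paneth cell markers 6 of 6 (Pla2g2a, at 0.324 FPKM in MG53-TG organoids, through its WT level), and 3 of 7 enteroendocrine markers were called higher. The summed stem cell markers were at 300.2 and 312.2 FPKM in MG53-TG samples 1 and 2 and at 95.7 and 61.2 FPKM in samples 3 and 4 of that genotype, against 532 to 718 FPKM in WT. The part of these cell types in the differences of the 6 genes was not tested, and in bulk samples fewer cells of a type and less RNA per cell cannot be told apart.

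Epcam, which marks epithelium, was at 398 to 490 FPKM in WT and 410 to 507 FPKM in MG53-TG samples, and of the 7 epithelial markers 1 was called higher and 4 lower. Summed markers of tuft cells and adipocytes were at most 1.73 and 1.05 FPKM in any sample, with no entry for Dclk1, Il25 and Lep. Mesenchymal markers summed to 1.80 to 3.24 FPKM in WT and 1.31 to 5.58 FPKM in MG53-TG samples, with no entry for Pdgfra and Lum. Col1a2 and Col3a1 had no entry in WT samples or in MG53-TG sample 1 and were at 0.739 to 2.07 and 0.904 to 1.62 FPKM in the other MG53-TG samples, and no call is given for them. The remaining tested gene of this list, Vim, was not called. Immune markers summed to 3.77 to 9.24 FPKM in WT and 0.609 to 1.47 FPKM in MG53-TG samples, with no entry for Cd79a, Itgam and Csf1r and 1 tested gene, called lower. Of the hepatocyte markers, which matter for genes best known from liver, Cyp2e1 was at 1.29 to 2.51 FPKM and Alb at 0.521 to 0.883 FPKM in WT, both without an entry in MG53-TG samples, and Ttr, which made up most of the sum of 27.5 to 41.1 FPKM, was not called.

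By the root mean square difference of centred log2(FPKM + 1) profiles over the 8 samples, the 3 closest protein-coding genes among 10078 were named for each gene with an entry in both genotypes. The profiles hold the difference between genotypes and come from shared libraries, so closeness is only a description. For Creb3l3 they were Apoc2 (0.25), Acaa1b (0.25) and Fam213a (0.28). For Angptl4 they were Ifi35 (0.09), Osbpl6 (0.09) and Pdk2 (0.11). For Pdk4 they were Vamp1 (0.15), H2-T23 (0.17) and Tmem106a (0.18), which like Pdk4 reached their highest value in MG53-TG sample 4. For Bdh1 they were Eif2ak1, Rtf2 and Lta4h, each with a value under 0.05, and for Acat1 Grtp1, Arhgap42 and Zdhhc17 (0.18 to 0.19), which like Acat1 were highest in MG53-TG sample 3.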

How the data were processed

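The authors trimmed the reads with Cutadapt 1.9.1, aligned them with HISAT2 2.0.1 to mm10 and deposited 1 FPKM for every transcript event of a sample, such as a transcript start, a transcript end or a skipped exon; the processing notes also name HTSeq 0.6.1. Depth is unknown, so no interval that needs it is given. Events were placed on GENCODE genes of GRCm38 by exon boundaries, which matched for 95.3% of 123166 events, and 5.69% were moved from the gene the files name. A gene's value was the sum of its start events, or of its end events where their mean was higher. An absent entry counted as missing if the rest of the genotype had a median of 0.5 FPKM or more, and as 0 otherwise.

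Groups were compared with limma 3.58.1 (trend) in R 4.3.3 on log2(FPKM + 1), keeping genes whose mean reached 0.5 FPKM, and p-values were adjusted by the Benjamini-Hochberg method with a threshold of 0.05; this scale understates the change of low genes. For single genes an exact permutation test (two-sided, 70 relabellings) was added. In data simulated for this comparison over 10659 genes, 60.5% of 200 genes changed by 1 on the log2 scale were recovered, with 6 unchanged genes called. The changed genes were drawn from the better expressed genes and were a far smaller share than the 44.3% called in the data. The 60.5% is therefore not the sensitivity of this comparison and does not cover low genes. The numbers of the replicates did not pair the samples (mean correlation of deviations 0.0233, 0 of 4 over 0.1). Python 3.11.15 with pandas 2.3.3 and matplotlib 3.10.9 was used for the rest.

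The 6 genes, the lists and the tests were chosen with earlier results of these data known. The genes named were the 6, their paralogs with a value, Trim72, the called genes of each list (the 6 with the largest change where more were called), listed genes not called with a mean FPKM of 10 or more, and the 3 nearest profiles (not for Cyp4a10, which has no entry in WT). Alternatives were another pseudocount, other filters, 2 scalings, a replicate block, other ways to measure a gene and leaving out each sample. The values of 4 genes of the lists of ketone body genes, PPARα targets and angiopoietin-like proteins are not reported here. They were taken out after values had been seen, so the ketone body genes are given without a count, and the other counts leave them out.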

Additional observations from a re-analysis of the deposited data

Results flagged for a closer look

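None of the 6 genes had a sample that lay far from the others of its group. Among the named genes, 108 groups of 4 samples were looked at for a highest or lowest sample set apart by the Dixon criterion at 95%, and 4 were found, where chance gives about 1 in 20 groups (5.4 here). Cyp4f13 was at 11.8 FPKM in WT sample 3, with the next WT sample at 6.16 FPKM. Apoc2 was at 319.6 FPKM in MG53-TG sample 2, under the other MG53-TG samples, the next being at 354.8 FPKM. Foxo3 was at 12.8 FPKM in WT sample 4, above 11.4 FPKM in the next. Tfeb was at 4.17 FPKM in MG53-TG sample 2, under 4.61 FPKM in the next.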

How the results depend on the processing

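Creb3l3 and Angptl4 kept their call in every alternative in which they were tested. Creb3l3 was not tested from start events alone, where its few entries were under the filter, and Angptl4 had no end events. Pdk4 and Cyp4a10 are left out, as they were tested through their MG53-TG values and their calls say nothing of stability. The log2 fold change of Acat1 ran from -0.0905 to 0.27 over the fits without a sample, turning sign without MG53-TG sample 3. With a pseudocount of 0.1 that of Pdk4 was 2.97. Bdh1 was called without a filter (0.19, adjusted p = 0.0445) and with median-of-ratios scaling (0.38, adjusted p = 0.00733). Over all genes 4891 were called (1723 higher), 4465 (2244 higher) with median-of-ratios scaling, 3911 to 5197 without a sample and 4443 with the replicate block, which did not change a call of the 6 genes (the replicate numbers did not pair the samples). With end events alone 1 gene of the CREB3 list, 4 of the CYP4 list and 4 of the fasting regulators were called. Only 8484 genes were tested with end events alone, against 11038 in the main fit, so a lower count need not be a lost call. For the pyruvate dehydrogenase list, 3 to 6 genes were called without a sample, 3 without WT sample 2. Of the 49 other named genes with a fit, 43 kept their direction throughout; the others were Angptl6 (0.0121 with median-of-ratios scaling), Pdha1 (0.0801 with the same), Creb3l1 (-0.56 with start events alone), Nr3c1 (-0.47 with start events alone, -0.00552 with the highest single event, -0.0511 to 0.31 without a sample), Creb3l4 (-0.0491 to 0.15 without a sample) and Mpc2 (-0.0414 to 0.42 without a sample). Of 38 called, 9 lost the call in some alternative and 0 changed direction. The cause of these shifts was not tested. With 4 samples per group and FPKM without counts, differences of low genes such as Pdk4 cannot be given a counting error.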
